A study of Rattus norvegicus with 72 samples.

Results

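The genes of the constitutive proteasome were followed across 15 groups of rat tissue arrays. They were chosen by name: every gene with a probe set whose only symbol in the platform annotation begins with Psma, Psmb, Psmc, Psmd, Psme or Psmf and a number, less Psmb8, Psmb9 and Psmb10 of the immunoproteasome. This gave 39 of the 14217 genes that had a probe set with a single symbol, and 37 of them were counted. Psmc3ip and Psme3ip1 fit the naming rule but encode proteins named after a subunit, not subunits. They were left out of all counts; from pregnancy to lactation at standard gravity the mammary value of Psmc3ip differed by 0.75 on the log2 scale and that of Psme3ip1 by 0.44. The 37 genes comprised 7 of the alpha ring, 6 of the beta ring, 6 ATPases of the base, 3 scaffold and receptor genes of the base, 8 of the lid, 3 assembly factors that carry a Psmd name, and 4 activators or inhibitors. Psmb6 and Psme3 were not members, since their probe sets carry the symbols of several genes, and no value of them is given.

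RNA of mammary gland, liver and adipose tissue came from rats in pregnancy or in lactation, kept at standard gravity or under hypergravity (an increased gravitational load), with 5 arrays labelled for each of these 12 groups. A separate set of 12 mammary arrays came from pregnant rats, with 4 arrays each for microgravity, for its flight control and for its vivarium control. In an array code the first letter is the tissue, the number is the rat, and a final S or H is standard gravity or hypergravity; the same 20 rats gave all 3 tissues. The labels name no strain, age, day of pregnancy or lactation, size of the load or pooling of animals, and all groups are of whole tissue. The array M210H, labelled lactating mammary, and A210H, labelled adipose of the same rat, had each other's markers: the mean log2 signal of 5 milk protein genes was 2.97 in M210H and 13.06 in A210H. Both were left out, which leaves 4 arrays in the lactating hypergravity groups of mammary gland and adipose tissue and 58 arrays in all.

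Median log2 signals lay between 4.32 and 4.56 for the standard gravity and hypergravity arrays and between 4.87 and 5.02 for the microgravity set, so levels were compared only within each set. The labelled tissues carried their markers in the arrays used: mean milk protein signals were 12.53 to 13.23 in mammary gland and at most 5.88 in liver, hepatocyte signals were 12.01 to 12.39 in liver, and adipocyte signals were 9.39 to 10.61 in adipose tissue. Skeletal muscle markers stood over 2 log2 units above the median of the tissue or set in M50H, M212H, A217H, A48S, VIVA and VIVC, and hepatocyte markers in M52S and M56H. Lymphocyte markers did so in M60H, A42S, A56H and FDSB. In the microgravity set, FDS marks the flight control and VIV the vivarium control.

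The proteasome is the protease of cytosol and nucleus that degrades proteins marked with ubiquitin. Its core is a barrel of outer alpha rings and inner beta rings, and the active sites lie inside on beta subunits. A regulatory particle caps the barrel: its base holds a ring of ATPases that unfold substrates, and its lid removes ubiquitin chains. In the lactating mammary gland, secretory cells make large amounts of milk protein, and the same machinery also degrades proteins returned from the endoplasmic reticulum.

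Promoter sequence, the 250 bases before 1 RefSeq start per gene in the GRCr8 assembly, was matched for 33 of the 37 genes. That start was the outer end of the annotated gene in 21 of the 33, up to 100 bases inside it in 5, and further inside in 7. Psma7, Psmd6, Psmd12 and Psmd14 had no entry. Below are the promoters of Psmb2 (chr5:144254808-144255057, plus strand) and Psma5 (chr2:198584255-198584504, plus strand). By the brightest probe set of each gene, these rose most from pregnancy to lactation in the mammary gland over both gravities. They are followed by Psmd10 (chrX:109453606-109453855, minus strand) and Psmc6 (chr15:21022064-21022313, plus strand), which fell most among those with a sequence. The last is Psmd5 (chr3:38548491-38548740, minus strand), the member that differed between gravities. The start used for Psma5 lies 3 bases inside the outer end of the gene and that for Psmd5 3595 bases inside, so the Psmd5 window is within its longest annotated extent. Each reads 5′ to 3′ along the gene, and capitals mark matches on either strand to a CCAAT box (CCAAT), a GC box (GGGCGG), an ETS core (CGGAAG) or an antioxidant element (TGA and GCA with any 4 bases between them).
Psmb2: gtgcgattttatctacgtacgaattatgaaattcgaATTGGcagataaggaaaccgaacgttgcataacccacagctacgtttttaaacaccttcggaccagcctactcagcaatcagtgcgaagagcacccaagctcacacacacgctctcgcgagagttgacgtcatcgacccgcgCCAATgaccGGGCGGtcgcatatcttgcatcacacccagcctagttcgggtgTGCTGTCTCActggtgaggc
Psma5: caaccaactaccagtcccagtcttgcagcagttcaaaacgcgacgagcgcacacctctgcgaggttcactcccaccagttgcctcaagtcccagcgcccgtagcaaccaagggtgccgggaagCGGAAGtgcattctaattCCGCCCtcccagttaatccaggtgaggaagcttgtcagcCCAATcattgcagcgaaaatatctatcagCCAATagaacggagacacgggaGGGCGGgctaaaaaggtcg
Psmd10: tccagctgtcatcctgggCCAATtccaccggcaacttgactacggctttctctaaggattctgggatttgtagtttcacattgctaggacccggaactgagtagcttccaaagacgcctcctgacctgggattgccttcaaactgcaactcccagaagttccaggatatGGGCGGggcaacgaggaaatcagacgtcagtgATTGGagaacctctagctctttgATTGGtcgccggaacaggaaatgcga
Psmc6: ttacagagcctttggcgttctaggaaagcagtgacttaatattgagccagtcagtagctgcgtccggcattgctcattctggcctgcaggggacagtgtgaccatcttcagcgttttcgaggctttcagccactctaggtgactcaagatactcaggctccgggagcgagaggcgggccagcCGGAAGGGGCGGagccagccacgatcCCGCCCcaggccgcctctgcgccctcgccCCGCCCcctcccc
Psmd5: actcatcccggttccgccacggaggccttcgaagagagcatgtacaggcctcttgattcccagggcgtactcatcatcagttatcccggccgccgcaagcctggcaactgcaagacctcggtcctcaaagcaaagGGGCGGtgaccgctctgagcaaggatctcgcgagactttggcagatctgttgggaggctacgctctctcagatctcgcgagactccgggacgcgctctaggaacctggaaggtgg

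Over the 33 sequences, a CCAAT box was found in 17 (51.5%), against 34.0% of all 33469 promoters of the same length. A GC box was found in 23 (69.7%, against 30.5%) and an ETS core in 15 (45.5%, against 13.9%). The antioxidant element, the site class of the Nfe2l1 and Nfe2l2 factors, was found in 5: Psma3, Psmb2, Psmb3, Psmd9 and Psmd13 (15.2%, against 10.7%). Matches of this kind describe letters in a window, and both rising and falling genes held them: Psmd10, which fell, held 3 CCAAT boxes, and Psmb2, which rose, held 2.

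In the mammary gland the direction of the called proteasome genes differed by role between pregnancy and lactation. Each role holds few genes, and the difference between roles was not tested. Genes of the core barrel were called only upward, ATPases of the base only downward, and the lid held both. At standard gravity 11 of 37 genes rose (29.7%) and 8 fell (21.6%), with a call at an adjusted p under 0.05 in limma; among all 14217 genes 14.4% were called higher and 25.7% lower. In hypergravity 11 rose (29.7%) and 6 fell (16.2%), against 13.5% and 21.2% of all genes. The median log2 difference of the 37 was 0.31 at standard gravity and 0.32 in hypergravity, where the median of all genes was -0.10 and -0.11. In whole tissue, fewer cells of a type and less RNA per cell cannot be told apart.

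The comparisons at standard gravity and in hypergravity share no array, but both came from the same fit and share its estimate of the spread. The same 7 genes rose in both (Psma1, Psma2, Psma5, Psmb2, Psmb7, Psmd11 and Psmd14), which is 63.6% of the risers of either gravity. The same 5 fell in both (Psmc2, Psmc6, Psmd10, Psmd12 and Psme2), which is 62.5% of those that fell at standard gravity and 83.3% of those that fell in hypergravity. None was called in opposite directions. The same overlap was not counted over all genes. In a fit of only the groups compared, Psmc6, Psmd10, Psmd12 and Psmd14 were not called in hypergravity.

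**Figure D1:**
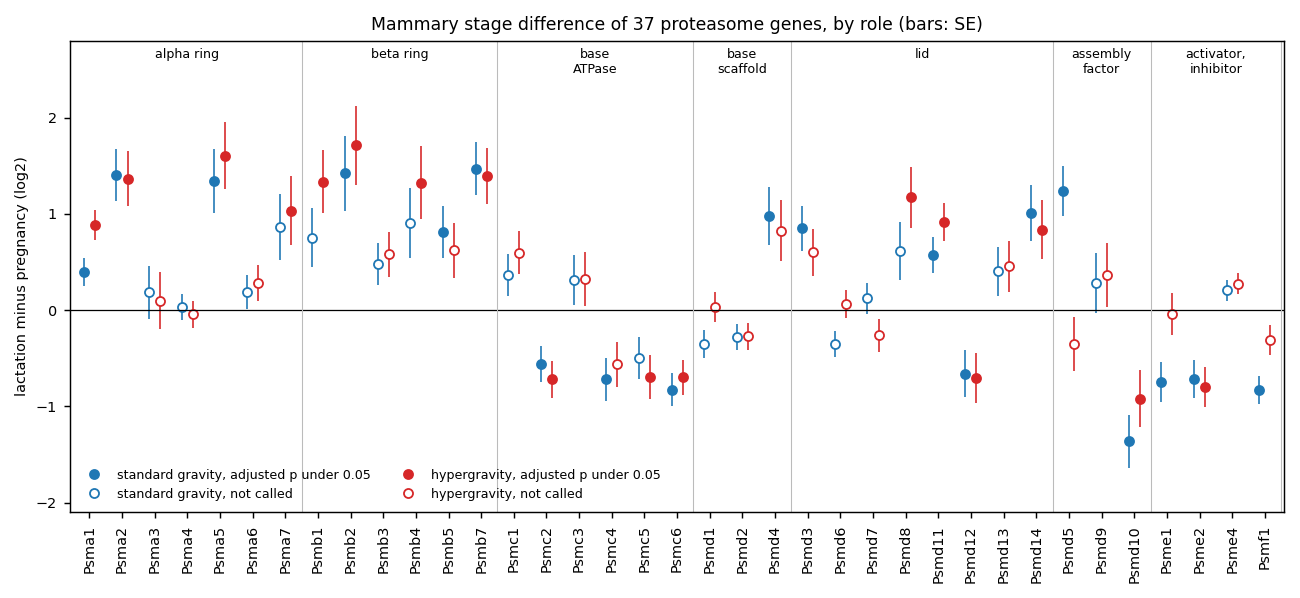
Log2 difference, lactation minus pregnancy, of each of the 37 genes in mammary gland at standard gravity (blue) and in hypergravity (red), grouped by role; bars are standard errors and filled points are called at an adjusted p under 0.05. Filled points of the alpha and beta rings lie above 0, those of the ATPases below 0, and the largest differences are 1.71 for Psmb2 in hypergravity and -1.36 for Psmd10 at standard gravity.

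Of the 7 alpha ring genes, whose subunits form the gated outer rings of the barrel, 3 rose at standard gravity and 4 in hypergravity, none fell, and the medians were 0.40 and 0.88. The shares of all genes called higher were 14.4% and 13.5%. Psma2 had log2 signals of 9.12, 9.85, 9.09, 8.54 and 8.86 in pregnancy at standard gravity and 10.81, 10.38, 10.51, 10.40 and 10.36 in lactation. Every lactating array lay above every pregnant one, by a difference of 1.40 ± 0.27 (SE), a 2.64-fold rise (adjusted p = 0.00065). For members named by rule, groups without overlap were a condition of the naming and add no support to the call. In hypergravity Psma2 had 8.73, 9.01, 9.02, 10.31 and 8.61 in pregnancy and 10.80, 10.32, 10.39 and 10.50 in lactation. The groups again did not overlap, although the pregnant array at 10.31, M56H, came within 0.01 of the lowest lactating one; the rise was 1.37 ± 0.29 (adjusted p = 0.00189).

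Psma5 had 8.65, 9.22, 8.40, 7.84 and 7.63 in pregnancy and 10.04, 9.39, 9.46, 9.75 and 9.81 in lactation at standard gravity. These groups were apart, and Psma5 rose by 1.34 ± 0.33 (adjusted p = 0.00418). Its hypergravity values were 7.75, 8.47, 7.98, 9.62 and 7.70 against 10.23, 9.82, 9.55 and 10.04. There M56H lay inside the lactating range, and the rise was 1.61 ± 0.35 (adjusted p = 0.00245). Psma1 rose by 0.40 ± 0.15 and 0.88 ± 0.15 at the 2 gravities, and Psma7 by 1.04 ± 0.36 in hypergravity. At standard gravity Psma7 was at 0.86 ± 0.34 and was not called (adjusted p = 0.0574). Psma3, Psma4 and Psma6 had differences between -0.04 and 0.28.

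The beta ring holds the active sites. Of its 6 genes measured here 3 rose at standard gravity and 4 in hypergravity, against 14.4% and 13.5% of all genes. None fell, and the medians of 0.86 and 1.33 were the highest of the 7 roles. Psmb7, the trypsin-like catalytic subunit, had 10.19, 10.91, 10.23, 9.65 and 9.50 in pregnancy and 11.69, 11.50, 11.48, 11.83 and 11.33 in lactation at standard gravity. All 5 lactating arrays were above all pregnant ones (1.47 ± 0.28, 2.77-fold, adjusted p = 0.000511). In hypergravity Psmb7 read 9.77, 10.72, 9.79, 10.83 and 9.34 in pregnancy and 11.70, 11.33, 11.34 and 11.56 in lactation, again without overlap (1.39 ± 0.29, adjusted p = 0.00188).

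Psmb2, a structural beta subunit, had 5.97, 7.38, 6.10, 5.91 and 5.97 in pregnancy and 8.05, 7.64, 7.55, 8.08 and 7.13 in lactation at standard gravity. The pregnant array at 7.38, M42S, lay apart from the other 4 and above the lowest lactating array; Psmb2 rose by 1.42 ± 0.39 (adjusted p = 0.00852). In hypergravity it had 5.83, 6.82, 6.13, 7.34 and 4.61 in pregnancy and 8.002, 7.67, 7.75 and 8.02 in lactation. The groups were apart, and the rise of 1.71 ± 0.41 (3.28-fold, adjusted p = 0.00481) was the largest among the brightest probe sets of the members. The value of 4.61 was from M60H, the array with lymphocyte markers 2.52 log2 units above the mammary median. Without M60H, Psmb2 stayed called.

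Psmb1, also a structural subunit, had 9.64, 10.40, 9.83, 10.70 and 8.45 in pregnancy in hypergravity and 11.32, 10.94, 11.13 and 11.17 in lactation. No pregnant array reached the lactating range (1.33 ± 0.33, adjusted p = 0.00548). At standard gravity its values were 10.18, 10.81, 10.33, 9.81 and 9.72 against 11.21, 10.71, 10.86, 11.12 and 10.73 (0.75 ± 0.31), with M42S inside the lactating range and an adjusted p of 0.0697. Psmb4 followed the same order, with 1.33 ± 0.38 in hypergravity (adjusted p = 0.0142) and 0.90 ± 0.36 at standard gravity (adjusted p = 0.0613).

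Psmb5, the chymotrypsin-like catalytic subunit, had 9.30, 10.37, 9.46, 8.86 and 9.01 in pregnancy and 10.39, 9.96, 10.31, 10.21 and 10.18 in lactation at standard gravity. M42S, at 10.37, lay among the lactating arrays, and Psmb5 rose by 0.81 ± 0.27 (adjusted p = 0.0256). This call was lost with quantile normalization repeated (0.65, adjusted p = 0.0675), with the mean of its 3 probe sets (0.24, adjusted p = 0.133), without the arrays that carry muscle or liver markers (0.78, adjusted p = 0.0694), and without M216S, M52S, M57S or M48S (adjusted p 0.0525 to 0.0743). In hypergravity Psmb5 had 9.33, 10.45, 9.33, 9.88 and 8.89 against 10.36, 10.08, 10.18 and 10.19, and was not called (adjusted p = 0.111). Psmb3 had 0.48 and 0.58 and was not called at either gravity.

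**Figure D2:**
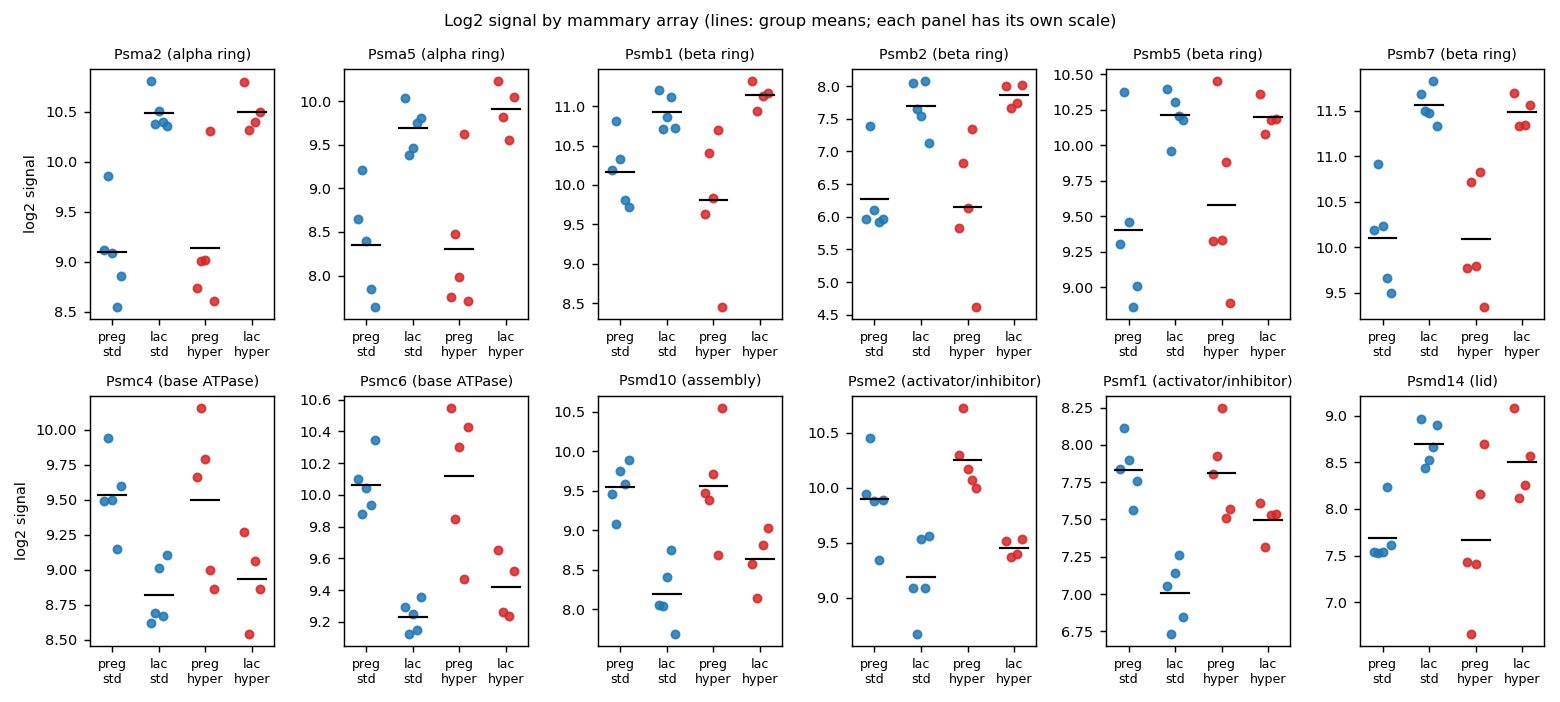
Log2 signal of 12 proteasome genes on each mammary array by stage, with standard gravity in blue and hypergravity in red; lines are group means and each panel has its own scale. The ring genes of the upper row are higher in lactation, with M42S and M56H the high pregnant arrays of Psma2 (9.85 and 10.31), and Psmc4, Psmc6, Psmd10, Psme2 and Psmf1 are lower.

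Of the 6 ATPases of the base, which pull substrates into the barrel, 3 fell and none rose at each gravity, with medians of -0.53 and -0.63. The fit as reported called 25.7% of all genes lower at standard gravity and 21.2% in hypergravity. When only the groups compared were fitted, 4 fell at standard gravity, and in hypergravity Psmc2 alone fell (adjusted p = 0.0471), with Psmc6 at 0.0624 and Psmc5 at 0.107. Of all genes, 28.8% were called lower at standard gravity and 14.3% in hypergravity in these fits. Psmc6 had 10.10, 9.88, 10.05, 9.93 and 10.35 in pregnancy and 9.29, 9.12, 9.25, 9.15 and 9.35 in lactation at standard gravity. The groups were over 0.5 apart, and Psmc6 fell by 0.83 on the log2 scale (SE 0.17, adjusted p = 0.00112). In hypergravity it had 10.55, 9.85, 10.30, 9.47 and 10.43 in pregnancy and 9.66, 9.26, 9.24 and 9.52 in lactation. M56H, at 9.47, lay inside the lactating range here too, and Psmc6 fell by 0.70 (SE 0.18, adjusted p = 0.00753).

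Psmc4 had 9.49, 9.94, 9.50, 9.15 and 9.60 in pregnancy and 8.62, 8.69, 9.01, 8.67 and 9.11 in lactation at standard gravity. It fell by 0.72 without overlap of the groups (SE 0.22, adjusted p = 0.0178), and in hypergravity its difference was -0.56 (adjusted p = 0.0832). Psmc2 fell by 0.56 (SE 0.18) at standard gravity and by 0.72 (SE 0.20) in hypergravity. Psmc5 fell by 0.69 (SE 0.23) in hypergravity and was at -0.50 (adjusted p = 0.0875) at standard gravity. The other two ATPases, Psmc1 and Psmc3, had positive differences between 0.31 and 0.60 and were called at neither gravity.

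Because both directions occurred within one particle, the mean of the 13 ring genes less the mean of the 6 ATPase genes was taken on each array. Its zero has no meaning, since probe sets differ in brightness, and centring an array leaves it as it is; it is given as a description with no test. In pregnant mammary arrays at standard gravity it was -0.23, 0.24, -0.21, -0.14 and -0.49, and in lactating ones 1.10, 1.09, 0.87, 1.08 and 0.57. In hypergravity it was -0.73, -0.28, -0.39, 0.78 and -0.44 in pregnancy and 1.05, 1.05, 1.03 and 0.95 in lactation. The array at 0.78 was M56H, whose hepatocyte markers stood 5.97 log2 units above the mammary median, and the other 4 lay below every lactating array. The part of those markers in its value was not tested.

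The same difference had group means of 0.81 to 1.07 in the 8 liver and adipose groups, which is the range of the lactating mammary groups (0.94 ± 0.23 and 1.02 ± 0.04, SD, n = 5 and 4). The pregnant mammary groups, at -0.17 ± 0.26 and -0.21 ± 0.58 (n = 5 each), lay apart from all others of this array set. Within the microgravity set, whose levels cannot be set beside these, the means were 0.54, 0.48 and 0.45.

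**Figure D3:**
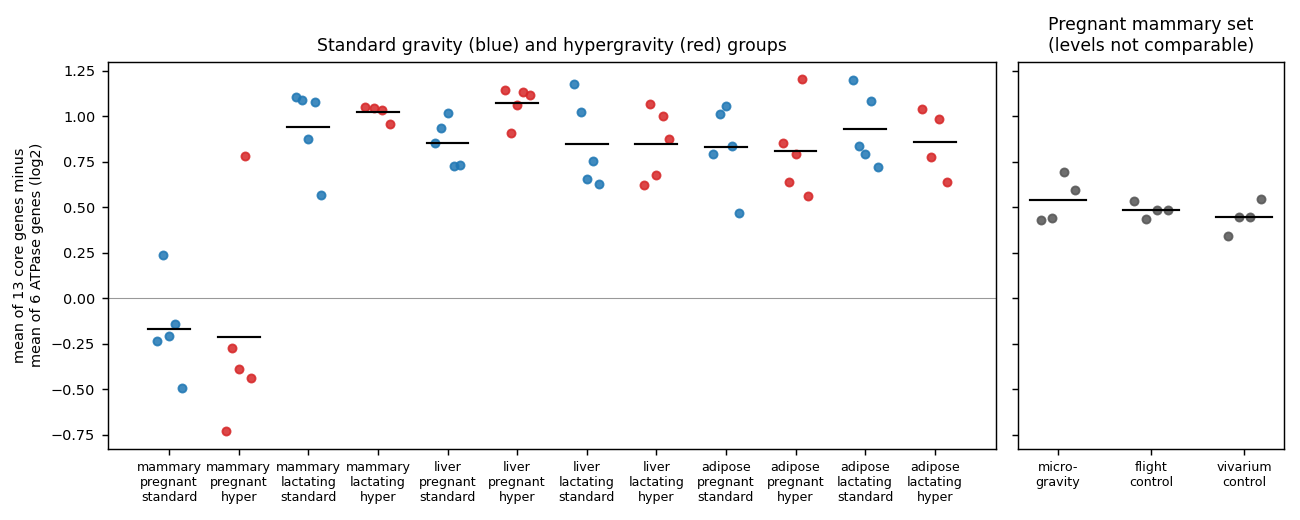
Mean log2 signal of the 13 ring genes less that of the 6 ATPase genes on each array; lines are group means, blue is standard gravity, red hypergravity and grey the microgravity set. Pregnant mammary arrays lie between -0.73 and 0.24 except M56H at 0.78, and the lactating mammary groups lie with liver and adipose tissue.

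Of the 3 scaffold and receptor genes of the base, Psmd4, a ubiquitin receptor, rose at standard gravity (0.98 ± 0.30, adjusted p = 0.0168) and was at 0.82 ± 0.32 in hypergravity (adjusted p = 0.0599). The scaffold genes Psmd1 and Psmd2 had differences between -0.35 and 0.03 and were not called. The 8 lid genes gave 3 risers and 1 faller at each gravity. Among all genes 14.4% were called higher and 25.7% lower at standard gravity, with 13.5% and 21.2% in hypergravity. Psmd14, the deubiquitinase of the lid, had 7.54, 7.53, 7.54, 8.24 and 7.61 in pregnancy and 8.96, 8.44, 8.52, 8.66 and 8.90 in lactation at standard gravity. It rose by 1.01 ± 0.29 without overlap (adjusted p = 0.0118). In hypergravity it had 7.43, 6.66, 7.41, 8.16 and 8.69 in pregnancy and 9.09, 8.12, 8.26 and 8.56 in lactation. The pregnant arrays M56H, at 8.16, and M60H, at 8.69, lay within the lactating range, and the rise was 0.84 ± 0.31 (adjusted p = 0.0491).

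Psmd11 rose at both gravities (0.57 ± 0.19 and 0.92 ± 0.20), Psmd3 at standard gravity (0.85 ± 0.23) and Psmd8 in hypergravity (1.17 ± 0.32, adjusted p = 0.00973). Psmd12, a scaffold subunit of the lid, fell by 0.66 and by 0.71. Psmd6, Psmd7 and Psmd13 were not called at either gravity.

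Assembly factors help build the base and are absent from the finished particle. Psmd10, which escorts an ATPase pair and is also known as gankyrin, had 9.46, 9.07, 9.75, 9.59 and 9.89 in pregnancy and 8.06, 8.04, 8.41, 8.75 and 7.69 in lactation at standard gravity. It fell by 1.36 (SE 0.28, 2.57-fold, adjusted p = 0.00104), the largest fall of any member, with no overlap. In hypergravity it had 9.47, 9.39, 9.71, 8.69 and 10.55 against 8.57, 8.15, 8.81 and 9.04. M56H, at 8.69, and the lactating arrays overlapped, and Psmd10 fell by 0.92 (SE 0.30, adjusted p = 0.0258). Psmd9 was called at neither gravity, and Psmd5 is described with the gravity comparisons.

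Psme1 and Psme2 encode the interferon-inducible activator that opens the barrel without ATP. Psme2 had 10.30, 10.73, 10.17, 10.07 and 9.995 in pregnancy in hypergravity and 9.51, 9.38, 9.40 and 9.54 in lactation. All lactating arrays were below all pregnant ones, and Psme2 fell by 0.79 (SE 0.21, adjusted p = 0.00812); at standard gravity it fell by 0.71 (adjusted p = 0.0088) with 1 pregnant array, M57S at 9.34, inside the lactating range. Psme1 fell by 0.75 at standard gravity (SE 0.21, adjusted p = 0.00899) and was at -0.04 in hypergravity. That difference between gravities was not called as a contrast of stage effects.

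Psmf1, an inhibitor of the core, had 7.84, 8.12, 7.90, 7.56 and 7.76 in pregnancy and 7.06, 6.73, 7.14, 7.26 and 6.84 in lactation at standard gravity. It fell by 0.83 (SE 0.15) with the smallest adjusted p of any member in this comparison, 0.000324, and no overlap. In hypergravity its difference was -0.31 and was not called. The brightest probe set of Psme4, the large activator of the nucleus, had 0.21 and 0.27 and was not called.

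Genes with several probe sets did not always give one answer. The other two probe sets of Psmd14 rose more than its brightest (2.05 and 2.22 at standard gravity, 1.92 and 2.28 in hypergravity). Psme4's other probe sets rose at both gravities (0.68 and 1.40; 0.54 and 1.72), where its brightest was not called. A further probe set of Psmd7 rose by 1.14 ± 0.35 and 1.04 ± 0.37 while the brightest did not. The remaining probe sets of Psmc6 were at -0.47 and -0.58 at standard gravity and were not called, and those of Psmb5, Psmc4, Psmd9, Psmd11 and Psme1 lay between -0.19 and 0.21 in both comparisons.

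Calls of the brightest probe sets were repeated in 24 alternative fits: with M210H, with 2 other scalings, without arrays carrying muscle or liver markers, without those high in lymphocyte markers, and without each of the 19 arrays. The only mammary array high in lymphocyte markers was M60H. The fit without such arrays and the fit without M60H are therefore the same, and count as 2 of the 24. These stage calls kept their sign in all 24. Psma1 at standard gravity was called in 12 of them (highest adjusted p 0.148, with quantile normalization repeated) and Psmd12 in 12 at standard gravity (0.106 without M214S) and 7 in hypergravity (0.154 without M212H). Psmd14 in hypergravity was called in 7 (0.173 without M203H) and Psma7 in 15 (0.0965 without M203H). Psmc2 at standard gravity was lost without M52S, M201S, M214S or M48S (at most 0.0724) and Psmd11 without M201S, M214S or M48S and with quantile normalization repeated (at most 0.0849).

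In hypergravity Psmd10 was lost without M50H, M203H, M212H or M60H, the array high in lymphocyte markers (at most 0.0935). Psmc5 was lost without M59H, M55H, M50H, M212H or M217H and with M210H (at most 0.0875). Apart from these and Psmb5, every stage call of a brightest probe set named here held in all 24; the other probe sets were not refitted. With quantile normalization repeated, 8 members rose and 10 fell at standard gravity (44.4% of calls higher, against 57.9% as reported). The alpha and beta rings still gave 2 risers each and no faller there, and the ATPases 3 fallers and no riser.

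A fit of only the groups compared changed the counts further. At standard gravity it called 15 higher and 11 lower (against 16.2% and 28.8% of all genes), among them all 19 reported. In hypergravity it called 8 higher and 2 lower (against 8.76% and 14.3%), all among those reported. There Psma1, Psma2, Psma5, Psmb1, Psmb2, Psmb7, Psmd8 and Psmd11 rose, and Psmc2 and Psme2 fell. The call was lost for the fallers Psmc5, Psmc6, Psmd10 (adjusted p = 0.0875) and Psmd12 (0.168) and for the risers Psma7 (0.12), Psmb4 (0.0763) and Psmd14 (0.165).

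Other genes of the ubiquitin pathway were also called in both directions in the mammary gland, as were genes at large. Of all genes, 14.4% were called higher and 25.7% lower at standard gravity, and 13.5% and 21.2% in hypergravity. The mammary stage counts of the lists below were not tested against these shares. Among 12 proteasome-bound and shuttle proteins, 4 rose and 3 fell at standard gravity and 2 rose and 3 fell in hypergravity: Ube3c, a ligase on the particle, rose by 1.21 ± 0.35 and 1.43 ± 0.37, and Adrm1, a ubiquitin receptor of the base, fell by 1.15 and 1.23. Of 9 genes of the Vcp segregase and endoplasmic reticulum disposal, 3 rose and 1 fell at standard gravity and 5 rose and 1 fell in hypergravity. Derl1, a channel component for returned proteins, rose by 3.33 ± 0.52 (adjusted p = 0.000109) and 3.23 ± 0.55, and Nploc4, an adaptor of Vcp, by 1.51 ± 0.29 and 1.52 ± 0.31.

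Of the 5 chaperones that assemble the core, none rose and 2 fell at standard gravity (Psmg1 by 0.82 and Psmg4 by 0.70), and in hypergravity Pomp rose (0.74 ± 0.21) while Psmg1 and Psmg2 fell. The ubiquitin-activating enzyme Uba1 fell by 1.02 and 1.34, while Uba6, another activating enzyme, rose by 0.66 and 0.76. Among 5 regulators of proteasome genes, Nfe2l2 (0.77 ± 0.19) and the protease Ddi2 (0.93 ± 0.31) rose at standard gravity, and Stat3 (3.09 ± 0.48) and Nfe2l1 (0.72 ± 0.25) rose in hypergravity, where Ngly1 fell by 0.91. Of the antioxidant response, 2 of 6 rose and 1 fell at standard gravity, and 1 rose and 2 fell in hypergravity, with Srxn1 up by 2.43 and 2.70. Of the 8 chaperonin genes, none rose and 2 fell at standard gravity and 1 fell in hypergravity, Cct5 most (by 1.40 and 1.04).

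Of the 3 immunoproteasome genes, Psmb10 fell by 1.05 (adjusted p = 0.000323) and 1.07, and Psmb8 and Psmb9 were not called. Of the interferon response genes, 8 of 11 fell at each gravity and none rose, led at both by Irf7, an interferon regulatory factor (by 3.63 and 2.96). In the liver, where no proteasome gene was called, 6 of these 11 fell at standard gravity and 5 in hypergravity. Of all genes, 0.408% and 2.55% were called lower there. The cell type markers moved as well. Macrophage markers fell in 5 of 10 genes at standard gravity, with array means of 7.44 to 7.87 in lactation and 8.55 to 8.96 in pregnancy, and 2 rose and 3 fell in hypergravity.

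Luminal epithelial markers fell in 4 of 7 at standard gravity (array means 9.25 to 10.18 in pregnancy, 8.78 to 8.92 in lactation) and rose in 2 of 7 in hypergravity (9.28 to 10.08 against 9.77 to 10.66). Lymphocyte markers fell in none of 7 and 4 of 7, adipocyte markers in 1 and 4 of 11, and milk protein markers rose in 2 and 1 of 5. The part of these cell types in the differences of the proteasome genes was not tested.

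Hypergravity changed few proteasome genes within a stage. In the pregnant mammary gland none of 37 was called, and none had an unadjusted p under 0.05 (background 0.00703% higher and 0% lower); the smallest p values were of Psma4 (0.27 ± 0.13, adjusted p = 0.938) and Psmd5 (0.48 ± 0.26, adjusted p = 0.957). In the lactating gland 1 of 37, Psmd5, was called, against 6.22% of all genes higher and 6.23% lower, and 4 had an unadjusted p under 0.05. As a contrast of the 2 stage effects, again Psmd5 alone was called (background 3.14% higher and 2.51% lower). These comparisons share arrays with the stage comparisons above.

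Psmd5 encodes a chaperone that holds ATPases of the base before the particle closes. Its mammary log2 signals in lactation were 7.79, 8.21, 8.36, 7.81 and 7.76 at standard gravity and 6.88, 7.20, 6.57 and 6.84 in hypergravity. Every hypergravity array lay below every standard gravity array, and Psmd5 fell by 1.12 (SE 0.28, 2.17-fold, adjusted p = 0.0143). In pregnancy it had 6.60, 7.24, 5.61, 6.94 and 7.34 at standard gravity and 7.35, 7.15, 7.50, 6.70 and 7.41 in hypergravity, with wide overlap.

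From pregnancy to lactation Psmd5 therefore rose at standard gravity (1.24 ± 0.26, adjusted p = 0.00134, no overlap) and was at -0.35 in hypergravity. The contrast between these stage effects was -1.59 (SE 0.38, adjusted p = 0.0224). Both gravity calls rest in part on M217H: without it the lactation difference was -1.01 and the contrast -1.49, each with an adjusted p of 0.0561. Luminal epithelial markers rose in 5 of 7 and macrophage markers in 2 of 10 between the same lactating groups, and their part in the Psmd5 difference was not tested.

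In the other tissues Psmd5 was not called for stage or gravity. Its liver means were 7.10 ± 0.63 and 7.35 ± 0.19 in pregnancy and 7.62 ± 0.32 and 7.33 ± 0.14 in lactation, the standard gravity group first (SD, n = 5 each). Its adipose means lay between 6.23 and 6.53. Next to Psmd5 in the lactating mammary comparison stood Psmf1 (0.49 ± 0.16, adjusted p = 0.0555, groups apart), Psme1 (0.59 ± 0.22, adjusted p = 0.113) and Psmd7 (-0.45 ± 0.17, adjusted p = 0.128), none of them called.

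**Figure D4:**
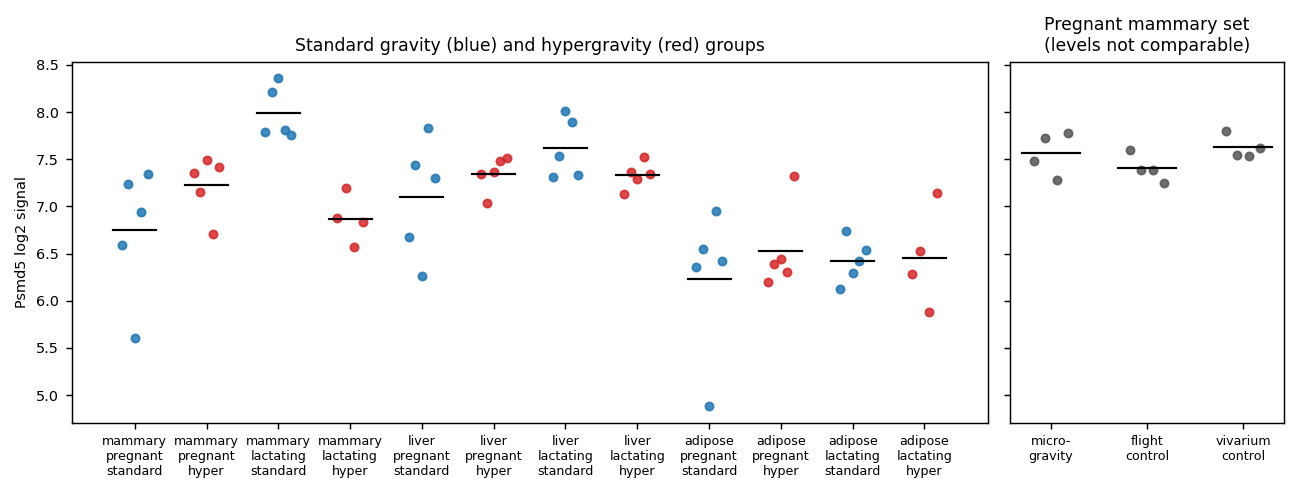
Log2 signal of Psmd5 on each array in the 12 standard gravity (blue) and hypergravity (red) groups, with the microgravity set apart (grey); lines are group means. Among mammary arrays, lactation at standard gravity is highest (7.76 to 8.36) and lactation in hypergravity runs from 6.57 to 7.20.

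In the liver no proteasome gene was called in any of 5 comparisons, and 3 to 6 of the 37 had an unadjusted p under 0.05. Of all genes, 0.324% were called higher and 0.408% lower between stages at standard gravity, and 1.83% and 2.55% in hypergravity. Between gravities 0.0492% were higher and 0.0774% lower in pregnancy and 0.148% and 0.338% in lactation, and 0.113% and 0.0844% in the contrast of stage effects. The smallest adjusted p, 0.114, was of the activator gene Psme1 in lactation: 10.66, 10.49, 9.95, 10.16 and 10.20 at standard gravity and 10.55, 10.94, 10.66, 10.78 and 10.88 in hypergravity. The ranges overlapped at 1 standard gravity array, with a difference of 0.47 ± 0.13.

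In pregnancy the 2 smallest p values in liver were of Psmb1 (0.31 ± 0.11, adjusted p = 0.406) and Psme1 (0.34 ± 0.13, adjusted p = 0.438), both without overlap of the groups. Between stages they were of Psmc6 (0.50 ± 0.14, adjusted p = 0.124) and Psmd1 (0.42 ± 0.15, adjusted p = 0.265) at standard gravity and of Psmd7 (-0.32 ± 0.12, adjusted p = 0.162) and Psmd9 (0.60 ± 0.25, adjusted p = 0.226) in hypergravity. Psmd7 was also second in lactation between gravities (-0.41 ± 0.12, adjusted p = 0.151) and first in the contrast of stage effects (-0.49 ± 0.17, adjusted p = 0.273), before Psma5 (-0.43 ± 0.16, adjusted p = 0.337). The sign of Psmc6 between stages was thus positive in liver and negative in mammary gland; only the mammary difference was called, and the tissues were not set against each other in a test of stage.

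In adipose tissue no member was called in any of 5 comparisons, and 1 to 3 had an unadjusted p under 0.05. Of all genes, 0.00703% were called higher and 0% lower between stages at standard gravity, and 0% in either direction in the other 4. Psmc6 (-0.44 ± 0.20, adjusted p = 0.815) and Psma1 (-0.17 ± 0.10) had the smallest p between stages at standard gravity, and Psma1 (0.30 ± 0.10) and Psmd13 (0.40 ± 0.19) in hypergravity. Between gravities Psme1 came first in both stages (0.51 ± 0.17 in pregnancy and 0.51 ± 0.18 in lactation) and Psma1 second (-0.27 ± 0.10 and 0.21 ± 0.10), all with an adjusted p of 1. In the contrast of stage effects Psma1 (0.48 ± 0.14) and Psme4 (0.53 ± 0.21) came first, also at 1.

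Within the microgravity set no member was called in any of 3 comparisons, and 0, 1 and 0 had an unadjusted p under 0.05. Against the flight control, 0.38% of all genes were called higher and 0.127% lower in microgravity; against the vivarium control, 0.415% and 0.211%; between the controls, 0% in either direction. Psmd10 (-0.32 ± 0.15, adjusted p = 0.394) and Psme4 (0.26 ± 0.13, adjusted p = 0.42) had the smallest p against the flight control, and Psme1 (-0.43 ± 0.20, adjusted p = 0.522) and Psmd10 (-0.30 ± 0.15, adjusted p = 0.577) against the vivarium control. Between the controls they were Psmc6 (-0.26 ± 0.13, adjusted p = 0.567) and Psmd5 (-0.22 ± 0.13, adjusted p = 0.598). The catalytic genes had close means: Psmb7 was 10.99 ± 0.10 in microgravity, 10.80 ± 0.19 in the flight control and 10.81 ± 0.05 in the vivarium control, and Psmb5 was 10.07 ± 0.11, 9.97 ± 0.27 and 10.12 ± 0.09 (SD, n = 4 each).

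More members were called between tissues than between gravities, and the same held for all genes. Adipose RNA was isolated with another kit than the rest, so tissue and isolation cannot be told apart there. The mean of the 37 genes per array was 9.27 ± 0.10 in liver (SD, n = 20), 8.94 ± 0.23 in mammary gland (n = 19) and 8.89 ± 0.20 in adipose tissue (n = 19). By tissue mean, 25 of the 37 were highest in liver, 10 in mammary gland and 2 in adipose tissue. Averaged over stages and gravities, 26 members were higher and 2 lower in liver than in adipose tissue (70.3% and 5.4%), against 33.3% and 33.7% of all genes. In mammary gland 9 were higher and 22 lower than in liver (24.3% and 59.5%), against 41.2% and 31.9%, and 14 were higher and 11 lower than in adipose tissue (37.8% and 29.7%), against 34.3% and 26.6%.

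Array medians differed between tissues. With each array centred on its median, the median of all genes moved from 0.05 to -0.07 between mammary gland and liver and from 0.03 to 0.17 between liver and adipose tissue. The members then gave 3 higher and 24 lower in mammary gland than in liver (11.1% of calls higher, against 29.0% as reported), and 31 higher and 1 lower in liver than in adipose tissue. The members' median difference between mammary gland and liver was -0.40 as reported and -0.53 centred; less the median of all genes it was -0.46 both ways.

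All 6 beta ring genes were higher in liver than in adipose tissue and lower in mammary gland than in liver. Psmb2 had a mean of 8.17 ± 0.28 in liver, 7.36 ± 0.24 in adipose tissue and 6.94 ± 1.01 in mammary gland. Its liver less adipose difference was 0.80 ± 0.14 (SE) and its mammary less liver difference -1.18 ± 0.14 (both called). Psmb7 was 11.66 ± 0.16, 11.26 ± 0.22 and 10.77 ± 0.85 in liver, adipose tissue and mammary gland, and Psmb5 10.50 ± 0.23, 10.05 ± 0.37 and 9.83 ± 0.55. The wide mammary spread holds the stage difference: Psmb7 means were 10.10 and 10.09 in the pregnant groups and 11.57 and 11.48 in the lactating ones, beside 11.57 to 11.82 in the 4 liver groups.

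Some members stood against this order. Psme4 ran from 11.09 over a median of 11.33 to 11.65 in mammary gland, from 9.96 over 10.52 to 10.82 in liver and from 9.65 over 9.81 to 10.55 in adipose tissue. No array of another tissue reached the mammary range. This brightest probe set was higher than in liver by 0.86 ± 0.06 and than in adipose tissue by 1.43 ± 0.06. The other probe sets of Psme4 were also higher, by 0.47 and 0.29 than in liver and by 0.41 and 1.12 than in adipose tissue. Psmd10 was also higher in mammary gland than in liver (0.71 ± 0.10), as were Psma3 (0.55 ± 0.11) and Psmc4 (0.32 ± 0.11). The call of Psmc4 was lost with centred arrays (0.19, adjusted p = 0.125) and with the mean of all its probe sets (adjusted p = 0.0933).

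Against adipose tissue, mammary gland was also higher in Psmd5 (0.79 ± 0.14), Psmc4 (0.77 ± 0.11) and Psmc6 (0.65 ± 0.09), and lower in Psmd14 (-0.72 ± 0.11), Psmd8 (-0.60 ± 0.14), Psma5 (-0.51 ± 0.11), Psmb4 (-0.50 ± 0.12) and Psmb7 (-0.46 ± 0.10). Psmd9, an assembly factor, had 5.49 ± 0.51 in mammary gland, 7.03 ± 0.47 in liver and 5.67 ± 0.39 in adipose tissue, with a mammary less liver difference of -1.53 ± 0.14.

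Psmf1, the inhibitor, ran from 8.20 over a median of 8.61 to 9.07 in liver, from 6.73 over 7.56 to 8.25 in mammary gland and from 6.26 over 7.11 to 7.79 in adipose tissue. Its difference between liver and adipose tissue, 1.60 ± 0.09, was the largest of the 37. Other members higher in liver were Psmd5 (0.94 ± 0.14 over adipose tissue) and Psmd8 (-1.08 ± 0.14 in mammary gland less liver). Only Psmd10 (-0.40 ± 0.10) and Psma6 (-0.23 ± 0.08) were called lower in liver than in adipose tissue, and Psma6 was not called with centred arrays (-0.09, adjusted p = 0.301).

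**Figure D5:**
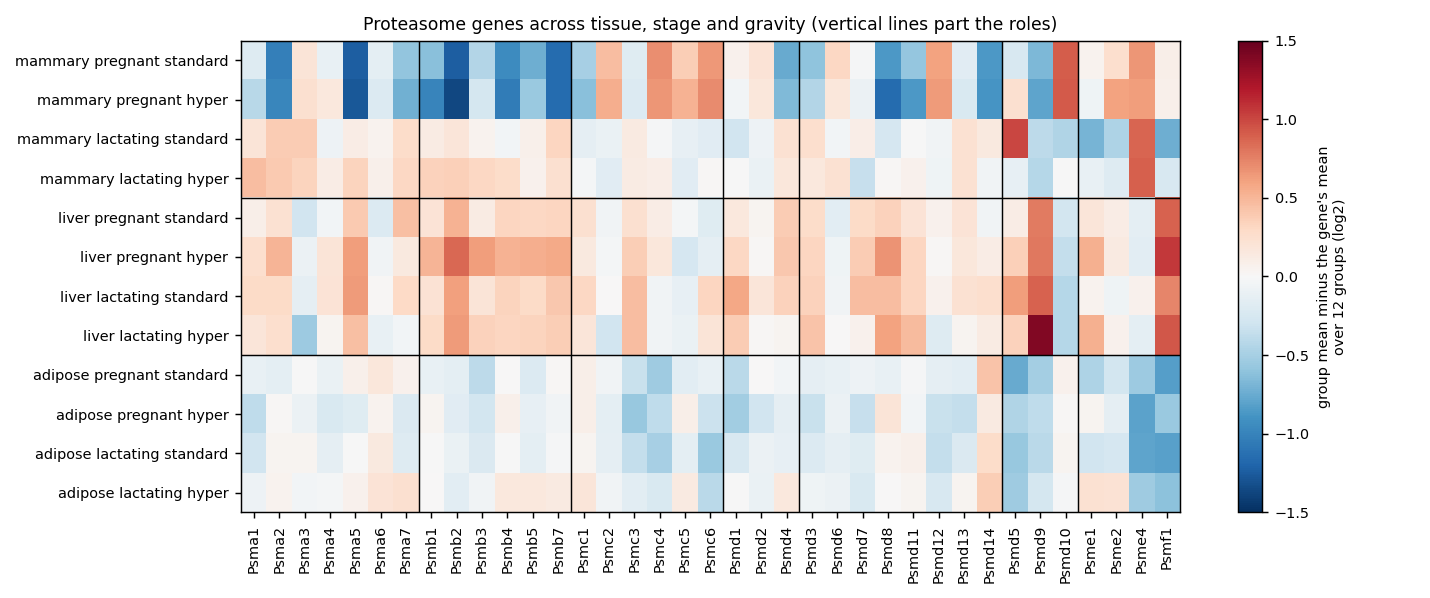
Mean log2 signal of each of the 37 genes in 12 groups, less the gene's own mean over these groups; red is higher, blue is lower, and lines part tissues and roles. Ring genes such as Psmb2, Psmb7 and Psma5 are lowest in the pregnant mammary groups, where Psmd10 and Psmc6 are highest, and Psmf1 and Psmd9 are highest in liver.

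Over the 12 standard gravity and hypergravity group means, the genes outside the family whose pattern was most like the mean of the 37 were Suds3 (Pearson r = 0.970), Lrrc8b (0.961), Ttyh2 (0.961), Mapk6 (0.959) and Tlcd4 (0.958). These correlations describe 12 points that share tissues, rats and fits, and were chosen as the highest of all genes. The members themselves correlated with their mean at -0.78 (Psmd10) to 0.94 (Psmd3), so the mean is not a pattern that every member shares.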

How the data were processed

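Rat tissue RNA was measured on 72 Affymetrix arrays. The authors deposited log2 signals for 31042 probe sets, made with RMA per the submitters' processing notes; its version and the arrays processed together are not given in the sources used here. Per the labels' protocols, RNA was isolated with TRIzol (mammary gland, liver) or a lipid kit (adipose) and amplified from a small input, so 3′ probe position can affect signal. No deposited column was left unused (0).

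Groups came from the labels, and symbols from the platform annotation (20826 probe sets with 1 symbol, 436 with several, 9780 with none). A gene is its brightest single-symbol probe set over the 60 standard gravity and hypergravity arrays. Each comparison was a contrast of group means in limma 3.58.1 under R 4.3.3 (lmFit, eBayes, two-sided p adjusted by Benjamini and Hochberg over all 31042 probe sets; call under 0.05), in 1 fit per tissue, 1 for the microgravity set and 1 across tissues, without M210H and A210H. The fit was tested on simulated data. Background shares count the 14217 genes. The number of arrays limits precision, and p-values measure the spread between arrays, which in the microgravity set may be technical.

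Members and lists were chosen with earlier results of these data known. Named by rule were Psmb5 and Psmb7 (Psmb6 had no single-symbol probe set), up to 4 called members per direction with the largest change and no overlap of groups, the 2 smallest p where none was called, and up to 2 called genes per other list; further members and list genes were named after their values were seen. Tissues of 1 rat carry the same code, and their deviations from group means correlated at -0.05 to 0.33. Alternatives covered scaling, low-value filter, array weights, probe sets, blocks and left-out arrays.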

Additional observations from a re-analysis of the deposited data

Results flagged for a closer look

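Among 63 groups examined (the mean of the 37 genes in each group, and 12 named genes in the 4 mammary groups), 3 held an array far from the others by Dixon's criterion at 95%; chance alone gives about 1 in 20 (5%). Psma2 was 10.31 in M56H, in the pregnant hypergravity mammary group whose other arrays were 8.61 to 9.02. M56H also carried hepatocyte markers. Psmb2 was 7.38 in M42S, in the pregnant standard gravity mammary group whose other arrays were 5.91 to 6.10. The mean of the 37 genes was 8.90 in FDSD of the flight control, where the group mean was 9.10. The stage effect of Psmd5 in mammary gland differed between gravities by -1.59 in the test of that difference.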

How the results depend on the processing

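Counts of called members were within 1.5 times the reported count in 497 repeats and outside it in 12, all 12 of them in the mammary gland. The 497 include repeats with 0 called where 0 was reported, as in liver, adipose tissue and the microgravity set. Few of all genes were called in those comparisons. Members named by rule kept direction and side of the threshold in 2198 repeats and lost their call in 12, those of Psmb5, Psmc4, Psma6 and Psmd5 named above. The 2198 include repeats of members named where none was called, which had no call to lose. Other calls named in the text were outside this count. Among them are the mammary stage calls of Psma1, Psma7, Psmc2, Psmc5, Psmd10, Psmd11, Psmd12 and Psmd14 that were lost in some of the alternative fits above. In the mammary stage comparison in hypergravity, a fit of only the groups compared gave 10 called, 8 higher and 2 lower, against 11 and 6. For hypergravity in the lactating mammary gland, 1 was reported, and only the groups compared and array weights gave 3 each. Quantile normalization repeated, the mean of all probe sets and leaving out arrays with muscle or liver markers gave 2 each there. Leaving out M60H, the only mammary array high in lymphocyte markers, also gave 3, an alternative chosen after seeing the data. Leaving out in turn 1 array of the groups compared gave 0 to 2 there and 0 to 1 for the contrast of stage effects. In both, 0 came without M217H. The uncalled difference of Psme1 between gravities in pregnant adipose tissue turned to -0.20 with the mean of its probe sets. The cause of these changes was not tested. Medians of the members moved by less than the spread in all 42 repeats with other scalings.

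With the rat as a replicate block (consensus correlation 0.0970), 31, 25 and 30 members were called between tissues, against 31, 25 and 28, and no call of a member named by rule changed. Letters A to D recur in the microgravity set, and the labels do not say whether they pair arrays. Deviations of arrays that share a letter correlated at -0.15 to 0.08. Tissues that carry the same rat number gave values as low as -0.05, so these correlations cannot settle the pairing. With the letter as a replicate block, 0 members were called in all 3 comparisons. Signal over background was not used here. Dim probe sets were set apart only in the low-value filter, which kept those whose highest group mean exceeded the median signal of the arrays fitted.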
